A study of Mus musculus with 6 samples.

Results

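Chemokines are small secreted proteins that steer migrating cells, and chemokine receptors are the G protein-coupled receptors that read them. Their genes were examined here in the olfactory epithelium of newborn mouse pups. A gene was included where a probe set carried exactly 1 gene symbol, and that symbol was a Ccl, Cxcl, Ccr or Cxcr name followed by a digit, or Cx3cl1, Cx3cr1 or Xcl1. This gave 49 genes on 77 probe sets, of 18193 genes with a single-gene probe set on the array. Each gene was read on 1 probe set, the one with the largest average across all 6 arrays. Of the 49 genes, 33 were ligands and 16 were receptors.

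The study profiled olfactory epithelium on 3 arrays from mutant pups and 3 arrays from wild-type pups, 1 pup per array, all 1 day old. Both groups shared a mixed C57Black6/J and 129SvJ background. The study sought targets of KLF7, a zinc finger transcription factor, by its title. The labels say only mutant, and the sources used here do not give the allele. Total RNA was amplified and labelled with biotin before hybridisation. The p-values below set group differences against the spread between these pups, which limma moderates with the spread of genes of similar level.

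In immune tissue, most chemokines recruit leukocytes. Ligands are sorted by the spacing of their first cysteines into CC, CXC, XC and CX3C classes, and the receptors are named after the class of ligand they bind. Homeostatic members such as Cxcl12 with its receptor Cxcr4 also guide neuronal precursors and axons, and mucosal members such as Ccl28, Cxcl14 and Cxcl17 are made by epithelia. Inducible members such as Cxcl1, Cxcl10 and Ccl2 are transcribed after inflammatory signals.

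Because the series asks for targets of a Krüppel-like factor, and such factors bind CACCC boxes, the 250 bases before the annotated start are shown for Cxcl12 and its receptor Cxcr4, and for Ccl27a and Ccl25, a pair of ligands with large group differences. Capitals mark CACCC, or GGGTG where the box lies on the other strand. Each line is the gene's own strand, 5′ to 3′, from RefSeq's GRCm38.p6 table, and the most upstream start was taken where the table lists several. The windows are chr6:117168285-117168534 (+) for Cxcl12, chr1:128592300-128592549 (-) for Cxcr4, chr4:41774177-41774426 (-) for Ccl27a and chr8:4324960-4325209 (+) for Ccl25.
Cxcl12: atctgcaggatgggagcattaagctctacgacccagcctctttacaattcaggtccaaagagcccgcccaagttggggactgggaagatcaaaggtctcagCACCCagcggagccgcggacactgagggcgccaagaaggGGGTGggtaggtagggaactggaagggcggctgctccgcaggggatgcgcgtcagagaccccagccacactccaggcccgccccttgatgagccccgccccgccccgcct
Cxcr4: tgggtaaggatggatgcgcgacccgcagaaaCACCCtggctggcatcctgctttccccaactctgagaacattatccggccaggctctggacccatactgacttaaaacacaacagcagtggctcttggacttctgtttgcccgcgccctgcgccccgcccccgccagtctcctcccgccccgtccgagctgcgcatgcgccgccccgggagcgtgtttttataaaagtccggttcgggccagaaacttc
Ccl27a: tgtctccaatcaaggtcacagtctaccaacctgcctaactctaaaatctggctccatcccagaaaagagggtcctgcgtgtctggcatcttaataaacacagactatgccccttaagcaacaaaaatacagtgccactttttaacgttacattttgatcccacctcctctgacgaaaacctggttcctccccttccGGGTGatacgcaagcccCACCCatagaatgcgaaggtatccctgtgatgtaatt
Ccl25: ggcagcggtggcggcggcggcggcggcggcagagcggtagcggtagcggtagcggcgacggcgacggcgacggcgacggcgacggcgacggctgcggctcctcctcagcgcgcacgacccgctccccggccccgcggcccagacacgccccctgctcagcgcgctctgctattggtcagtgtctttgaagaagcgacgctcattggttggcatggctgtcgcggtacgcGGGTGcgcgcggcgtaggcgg
Cxcl12 held 2 boxes, 149 and 110 bases before the start, and Ccl27a held 2, at 54 and 37 bases. Cxcr4 held 1 box at 219 bases and Ccl25 held 1 at 21 bases. Of the 49 genes, 36 had a window in that table, and 23 of their 40 windows (57.5%) held CACCC on either strand, against 52.0% of all 32851 windows of that length. A match describes letters only and was not tested as a binding site.

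Klf7 itself checked the labels: all 4 of its probe sets were lower in mutant arrays with no overlap, by log2 differences between -3.06 and -2.15. Total deposited intensity ran from 11056396.5 to 14439787.7 on mutant arrays and from 10064206.9 to 13320971.2 on wild-type arrays. Arrays were quantile normalized, and levels are given as log2 intensity with a floor at 3.65, the level of an intensity of 12.56. Wild-type array 3 and, less so, mutant array 3 stood apart on the first principal component, at 98.2 and 49.5, with the other 4 arrays between -42.4 and -32.3. Markers of mature olfactory neurons were present on every array. Their list median lay at 8.98 to 9.44 in mutant arrays and 9.72 to 10.15 in wild-type arrays. Of 9 tested members, 8 had a negative difference (median -0.90), with 0 called by limma over all genes. By limma 6 of the 9 were at an unadjusted p under 0.05, against 0.598% of all genes tested. For 5 of the 9 all mutant arrays were below all wild-type arrays, against 1.95% of all genes.

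No chemokine or chemokine receptor gene separated mutant from wild-type pups past the threshold. Of the 49, 24 lay above the dim filter (a mean log2 intensity of 5.19) and were tested, namely 20 ligands and 4 receptors. With limma and Benjamini-Hochberg adjustment over 12703 genes, 0 of the 24 passed an adjusted p of 0.05, against 0% of all genes tested. At an unadjusted p under 0.05 limma gave 0 of the 24, against 0.598% of all genes. This fit did not pair the arrays. With the replicate number as a block, 2 of the 24 were at an unadjusted p under 0.05, beside 157 of 12703 genes, and 0 passed the adjusted p. The mutant mean was above the wild-type mean for 14 of the 24 (58.3%), against 47.4% of all genes tested, and the median log2 difference, mutant minus wild type, was 0.07, against -0.02 over all genes. These tissue RNA values cannot tell fewer cells of a type from less RNA per cell.

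**Figure D1:**
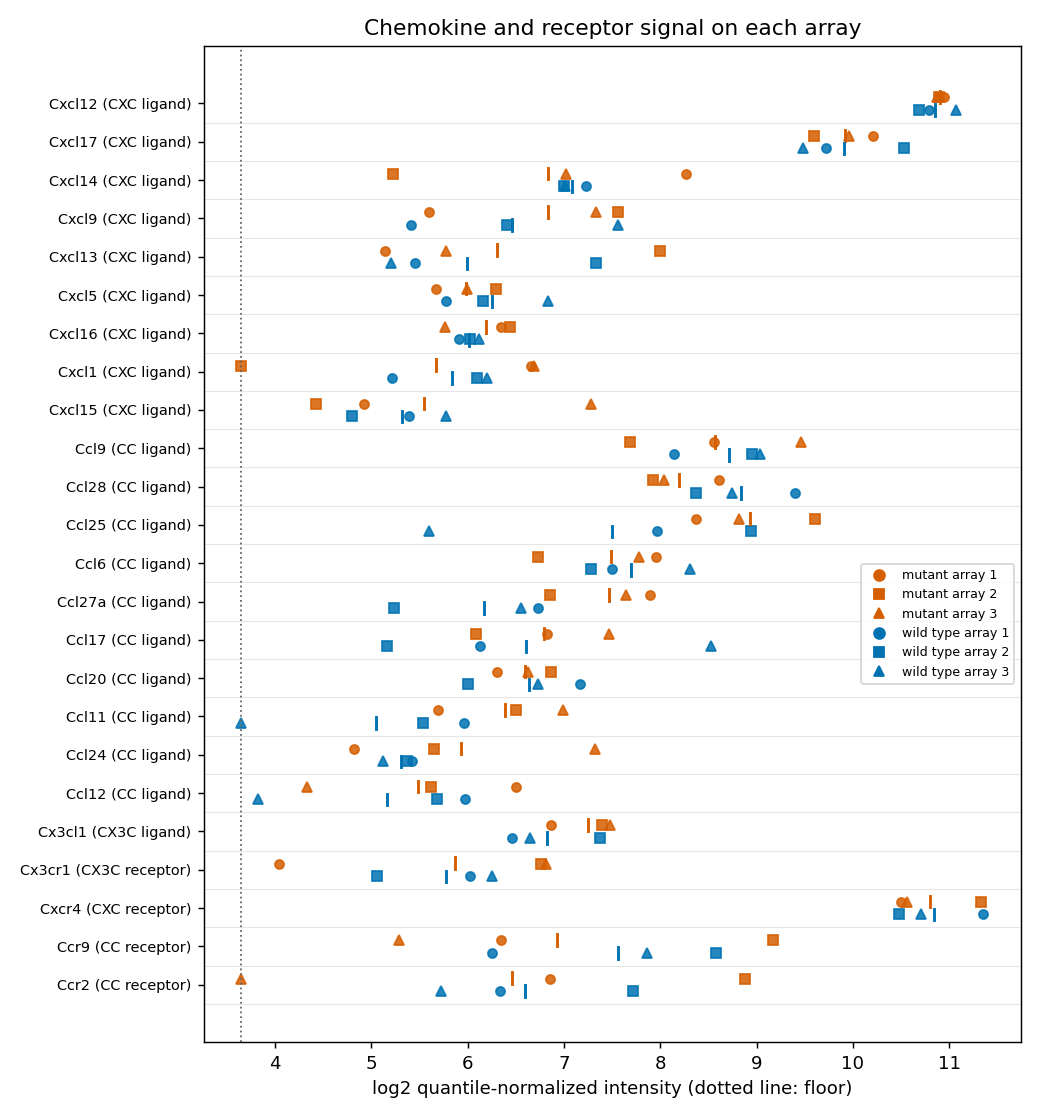
Signal of the 24 tested chemokine and receptor genes on each array, as log2 quantile-normalized intensity (horizontal axis), with mutant arrays in orange above wild-type arrays in blue, marker shape for the replicate number, and short vertical bars for group means (n = 3 each). Mutant and wild-type points interleave for every gene except Ccl27a, whose 3 mutant arrays lie at 6.85 to 7.89 and whose wild-type arrays lie at 5.24 to 6.73.

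Differences of 1 or more on the log2 scale were found for 3 of the 24 tested members (12.5%), all with the mutant mean higher, against 2.5% of all genes in either direction and 1.51% with the mutant higher. They were Ccl25, Ccl11 and Ccl27a. Without wild-type array 3 their differences were 0.48, 0.67 and 1.52. The shares of all genes are not matched for level, and 18 of the 24 members had a mean below the median of all tested genes. None of the 24 had a difference of -1 or less, against 0.992% of all genes. The groups did not overlap for 1 of the 24 (4.17%), Ccl27a, against 2.86% of all genes tested. Its mutant arrays were the higher ones, as for 0.905% of all genes, and no member had all mutant arrays lower, against 1.95% of all genes. All 3 numbered pairs of arrays had the mutant higher for 3 members, Ccl25, Ccl27a and Cx3cl1 (12.5%, against 6.31% of all genes). The mutant was lower in all 3 pairs for 1 member, Ccl28 (4.17%, against 9.46%).

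Cxcl12, the ligand that holds and guides Cxcr4-bearing cells, was nearly level across pups on its chosen probe set. Its log2 intensity was 10.94, 10.89 and 10.88 on mutant arrays 1, 2 and 3, against 10.79, 10.69 and 11.07 on wild-type arrays 1, 2 and 3. The 6 arrays spanned 0.38, the mutant values lay inside the wild-type range, and the log2 difference was 0.05 (SE 0.20, limma adjusted p = 1). Its within-group SD of 0.14 was lower than that of any other tested member. The other Cxcl12 probe set above the dim filter had a difference of 0.40, with wild-type array 3 at 7.19 and the other arrays at 8.20 to 8.76. The third was dim, with a difference of 1.16 and values of 4.65 to 5.30 on mutant arrays, against 3.65 to 4.13 on wild-type arrays, without overlap. With the mean of all Cxcl12 probe sets the difference was 0.54 (limma unadjusted p = 0.116), so the size of the difference depended on the probe set.

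Cxcr4, the receptor for Cxcl12, which progenitors and young neurons of the olfactory lineage carry, read 10.50, 11.33 and 10.57 on mutant arrays, against 11.35, 10.48 and 10.71 on wild-type arrays. One array of each group was high, mutant array 2 and wild-type array 1, and the others lay close together. The log2 difference was -0.05 (SE 0.29, limma adjusted p = 1). Within pairs of the same number it was -0.86, 0.86 and -0.14, so the pairs disagreed in sign. Ackr3, the atypical receptor that removes Cxcl12, read 9.57, 9.43 and 9.69 on mutant arrays, against 9.90, 9.83 and 9.16 on wild-type arrays. Its groups overlapped, with a log2 difference of -0.06 (SE 0.30).

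Among ligands of barrier epithelia, Ccl27a had the clearest separation. Ccl27a is the skin chemokine that binds Ccr10 on homing T cells. Its log2 intensity was 7.89, 6.85 and 7.65 on mutant arrays, against 6.73, 5.24 and 6.56 on wild-type arrays. All mutant arrays were above all wild-type arrays, by 0.13 at the closest, and both arrays numbered 2 were the lowest of their group. The means were 7.46 ± 0.54 in mutant and 6.17 ± 0.82 in wild-type arrays (SD, n = 3 each), a log2 difference of 1.29 (SE 0.61, 2.45-fold), with limma unadjusted p = 0.0573 and adjusted p = 1. An exact two-sided permutation test gave p = 0.1, the smallest that 3 arrays against 3 allow. Within pairs the difference was 1.16, 1.62 and 1.09. Blocking on replicate number gave a limma unadjusted p of 0.0165 and an adjusted p of 1. Without wild-type array 2 the difference was 0.82.

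Ccl27a has near-identical copies in the mouse genome, and its probe set, by the x in its name, is of a type that can hybridise with related transcripts. Signal of Ccl27a and its copies therefore cannot be told apart. A pair of further probe sets is annotated to Ccl27a together with Ccl27b and other copies and was outside the rule. The first read 7.49, 6.80 and 7.97 on mutant arrays, against 7.02, 5.60 and 7.33 on wild-type arrays. The second read 8.24, 6.43 and 7.49 on mutant arrays, against 6.95, 4.49 and 7.61 on wild-type arrays. Both had overlapping groups, with differences of 0.77 and 1.04, and wild-type array 2 was the lowest array on each, as it was on the chosen probe set.

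Ccl25, the ligand of Ccr9 that draws developing T cells to the thymus and lymphocytes to the gut, had the largest difference of the tested members. Its log2 intensity was 8.37, 9.61 and 8.81 on mutant arrays, against 7.97, 8.95 and 5.59 on wild-type arrays. Wild-type array 3 was far below the other 5, and wild-type array 2 lay above mutant arrays 1 and 3, so the groups overlapped. The means were 8.93 ± 0.63 in mutant and 7.50 ± 1.72 in wild-type arrays (SD, n = 3 each), a log2 difference of 1.43 (SE 0.73, 2.69-fold), with limma unadjusted p = 0.0775 and adjusted p = 1. Without wild-type array 3 the difference was 0.48 (limma unadjusted p = 0.318), and without wild-type array 2 it was 2.14 (limma unadjusted p = 0.00933, adjusted p = 1). Within pairs the difference was 0.40, 0.66 and 3.22. Blocking on replicate number gave a limma unadjusted p of 0.0302 and an adjusted p of 1. Array weights gave a difference of 0.68, and the mean of both Ccl25 probe sets 0.77.

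Ccr9, the receptor of Ccl25 on thymocytes and gut-homing T cells, read 6.35, 9.17 and 5.28 on mutant arrays, against 6.25, 8.58 and 7.86 on wild-type arrays. Both arrays numbered 2 were the highest, and mutant array 3 the lowest, so the groups overlapped. The log2 difference was -0.63 (SE 0.93, limma adjusted p = 1), and 0.35 without both arrays numbered 3. The other Ccr9 probe set above the dim filter had a difference of 0.29, and the mean of all Ccr9 probe sets gave -0.01, so the probe sets disagreed. Of its 5 probe sets, 3 were higher on both arrays numbered 2 than on any other array.

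Ccl28, a mucosal ligand of Ccr10 and Ccr3 that salivary and airway epithelia secrete, had the most negative difference of the tested members. It read 8.61, 7.92 and 8.04 on mutant arrays, against 9.40, 8.37 and 8.74 on wild-type arrays. Mutant arrays 2 and 3 were below every wild-type array and mutant array 1 lay among them. The log2 difference was -0.65 (SE 0.40, 0.638-fold), with limma unadjusted p = 0.136 and adjusted p = 1. A second Ccl28 probe set above the dim filter had a difference of 0.004, and the remaining one, which was dim, had -0.69, so the probe sets disagreed. Without wild-type array 1 the difference on the chosen probe set was -0.36.

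Cxcl17, a ligand of mucosal surfaces, read 10.21, 9.60 and 9.96 on mutant arrays, against 9.73, 10.53 and 9.48 on wild-type arrays. Wild-type array 2 was the highest, the groups overlapped, and the log2 difference was 0.01 (SE 0.32). Cxcl14, a ligand that resting epithelia make, read 8.26, 5.22 and 7.02 on mutant arrays, against 7.23, 7.003 and 7.02 on wild-type arrays. The wild-type arrays were alike, while mutant arrays 1 and 2 lay on either side of them by over 1, which left a difference of -0.25 (SE 0.72). Ccl20, the epithelial ligand of Ccr6, had a difference of -0.03 (SE 0.57).

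**Figure D2:**
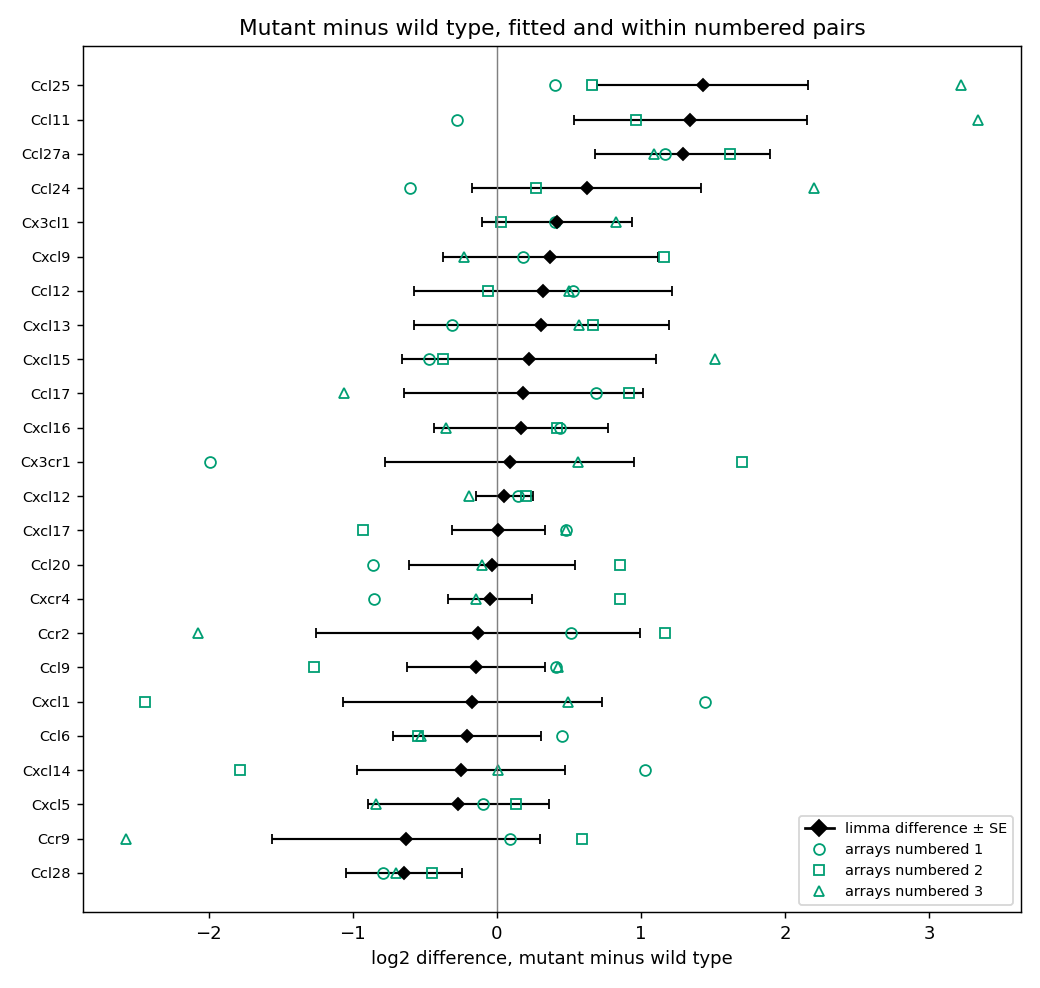
Log2 difference, mutant minus wild type (horizontal axis), of the 24 tested genes: black diamonds are the fitted difference with its SE (3 arrays each), and open green symbols are the differences within arrays of the same number. For Ccl25 and Ccl11 the value of the arrays numbered 3, above 3 in both, lies far from the other pairs, while for Ccl27a the pairs lie between 1.09 and 1.62.

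Among ligands of eosinophils and monocytes, Ccl11 (eotaxin, which acts through Ccr3) read 5.69, 6.503 and 6.99 on mutant arrays, against 5.96, 5.53 and 3.65 on wild-type arrays. Wild-type array 3 was at the floor and mutant array 1 lay among the wild-type arrays. The log2 difference was 1.34 (SE 0.81, limma unadjusted p = 0.123, adjusted p = 1), with 0.67 without wild-type array 3, 0.58 with array weights and 0.37 without both arrays numbered 3. Ccl24, a second eotaxin, had a difference of 0.62 (SE 0.79), carried by mutant array 3 at 7.32 with the other arrays at 4.83 to 5.65. Ccl11 and Ccl24 thus had their high mutant array in common, mutant array 3.

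Ccl9 and Ccl6, rodent ligands of Ccr1 on myeloid cells whose genes are neighbours, had mean levels of 8.64 and 7.59 on the chosen probe sets. A second probe set of each gene was lower, at 5.22 for Ccl9 and 5.035 for Ccl6. Ccl9 read 8.56, 7.69 and 9.46 on mutant arrays, against 8.15, 8.95 and 9.04 on wild-type arrays. Ccl6 read 7.96, 6.74 and 7.78 on mutant arrays, against 7.50, 7.29 and 8.31 on wild-type arrays. Mutant array 2 was the lowest array for both genes, and their groups overlapped, with differences of -0.15 (SE 0.48) and -0.21 (SE 0.51). Ccl12, a mouse ligand of Ccr2, had a difference of 0.32 (SE 0.89), with both arrays numbered 3 the lowest. Ccl17, a ligand of Ccr4 on T cells, had a difference of 0.18 (SE 0.83), with wild-type array 3 at 8.53 above the other arrays.

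Ccr2, the receptor of monocytes leaving bone marrow, had the widest spread of the tested members. It read 6.86, 8.88 and 3.65 on mutant arrays, against 6.34, 7.71 and 5.73 on wild-type arrays. Both arrays numbered 2 were the highest and both numbered 3 the lowest, with mutant array 3 at the floor. The log2 difference was -0.13 (SE 1.12). Of its 4 probe sets, 1 had this pattern: the second above the dim filter was highest on wild-type array 3, at 6.83. Its ligand Ccl2 lay under the dim filter, at 3.65, 6.03 and 4.67 on mutant arrays, against 4.16, 4.52 and 5.83 on wild-type arrays. The high arrays for Ccl2 were mutant array 2 and wild-type array 3, so the groups overlapped.

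Among neutrophil ligands, Cxcl1, which acts through Cxcr2, read 6.66, 3.65 and 6.69 on mutant arrays, against 5.22, 6.09 and 6.20 on wild-type arrays. On this probe set mutant array 2 was at the floor while the other mutant arrays were above every wild-type array. The difference was -0.17 (SE 0.90), and 0.96 without both arrays numbered 2. The other Cxcl1 probe sets, both dim, differed in pattern. On them mutant array 3 read 4.08 and 4.01, below wild-type array 2 at 6.15 and 5.75, and mutant array 2 read 4.57 and 3.93. Cxcl5 had a difference of -0.27 (SE 0.63) and Cxcl15, known from mouse lung epithelium, 0.22 (SE 0.88). Cxcl2 and Cxcl3, their neighbours in the genome, lay under the dim filter, and so did Cxcr2.

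Of the interferon-induced ligands of Cxcr3, Cxcl9 was tested, with a difference of 0.37 (SE 0.75). Cxcl10 lay under the dim filter, at 4.50, 5.29 and 4.54 on mutant arrays, against 3.65, 4.76 and 4.37 on wild-type arrays. Its highest array was mutant array 2 and its lowest wild-type array 1, with overlap between the groups. Cxcl11 and Cxcr3 were dim as well. Cxcl13, the ligand that gathers B cells through Cxcr5, had a difference of 0.31 (SE 0.88), with 8.0 on mutant array 2 and 7.33 on wild-type array 2 and 5.15 to 5.78 on the other arrays.

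Cx3cl1 and Cxcl16, a pair of ligands made as membrane proteins and shed by metalloproteases, varied less. Cx3cl1, fractalkine, which neurons and epithelia display to microglia and monocytes, read 6.86, 7.40 and 7.47 on mutant arrays, against 6.46, 7.37 and 6.65 on wild-type arrays. Wild-type array 2 lay above mutant array 1, and the difference was 0.42 (SE 0.52, limma adjusted p = 1), with a second probe set above the dim filter at 0.42. On that second probe set mutant array 3, at 5.915, was below wild-type array 3, at 6.57, so the pairs disagreed in sign. The mean of all Cx3cl1 probe sets gave 0.19. Cxcl16 had a difference of 0.17 (SE 0.61). Cx3cr1, the receptor of Cx3cl1 on microglia and macrophages, read 4.04, 6.76 and 6.81 on mutant arrays, against 6.03, 5.06 and 6.25 on wild-type arrays. Mutant array 1 was the lowest and the other mutant arrays the highest, which left a difference of 0.09 (SE 0.87).

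Receptors were mostly too dim to test. Of 16 receptors, 12 lay under the dim filter, and of 33 ligands, 13 did. The 25 dim members had means of 3.65 to 4.91 on the log2 scale, and their highest value on any array was 6.22, for Cxcl2 on wild-type array 2. Ccl4 and Ccl8 were at the floor on all 6 arrays. In all, 8 of the 25 were at the floor on at least 4 arrays. The remaining dim members, besides those named above, were Ccl1, Ccl3, Ccl5, Ccl7, Ccl22, Xcl1, Ccr1, Ccr1l1, Ccr3, Ccr4, Ccr6, Ccr7, Ccr8, Ccr10, Cxcr5 and Cxcr6. Group means of dim members differed by -0.44 (Cxcl11) to 0.54 (Ccr7), values that the floor compresses. Nearest the filter were Ccl12 inside it, at a mean of 5.32, and Cxcl11 outside it, at 4.91. A dim probe set does not show that a gene is not expressed, since probe sets differ in how well they bind.

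Some members peaked or dipped on arrays of the same number in both genotypes. Ccl25, Ccr9, Ccr2 and Cxcl13 were higher on both arrays numbered 2 than on any other, or 4 of 24 (16.7%), against 5.54% of all genes tested. Of the 2 probe sets each of Ccl25 and Cxcl13, 1 had this pattern. Ccl6, Cxcl14, Ccl17 and Cxcl15 were lower on both arrays numbered 2 than on any other, again 4 of 24 (16.7%), against 8.09% of all genes. The second probe sets of Ccl6, Cxcl14 and Cxcl15, all dim, did not have this pattern. For Ccl6 and Cxcl14, wild-type array 2 read 4.84 and 5.17 there, above wild-type array 1 at 4.34 and 4.54. For Cxcl15, mutant array 2 was the highest there, at 5.03. For the arrays numbered 1, 2 members were higher on both than on any other (8.33%, against 12.6% of all genes) and 2 lower (8.33%, against 6.23%). For the arrays numbered 3, 3 were higher (12.5%, against 18.9%) and 2 lower (8.33%, against 19.1%). So on the chosen probe sets, for number 2 alone, the share of members was above that of all genes in both directions. Most of these members did not repeat it on all their probe sets. Lymphocyte markers, as a list, had their highest medians on the arrays numbered 3, and so did dendritic cell, mast cell and red blood cell markers. The lymphocyte list median was 4.07, 4.61 and 5.38 on mutant arrays, against 4.11, 4.37 and 4.83 on wild-type arrays. The sources used here do not say what the shared number stands for, and the part of lymphoid cells in these values was not tested.

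**Figure D3:**
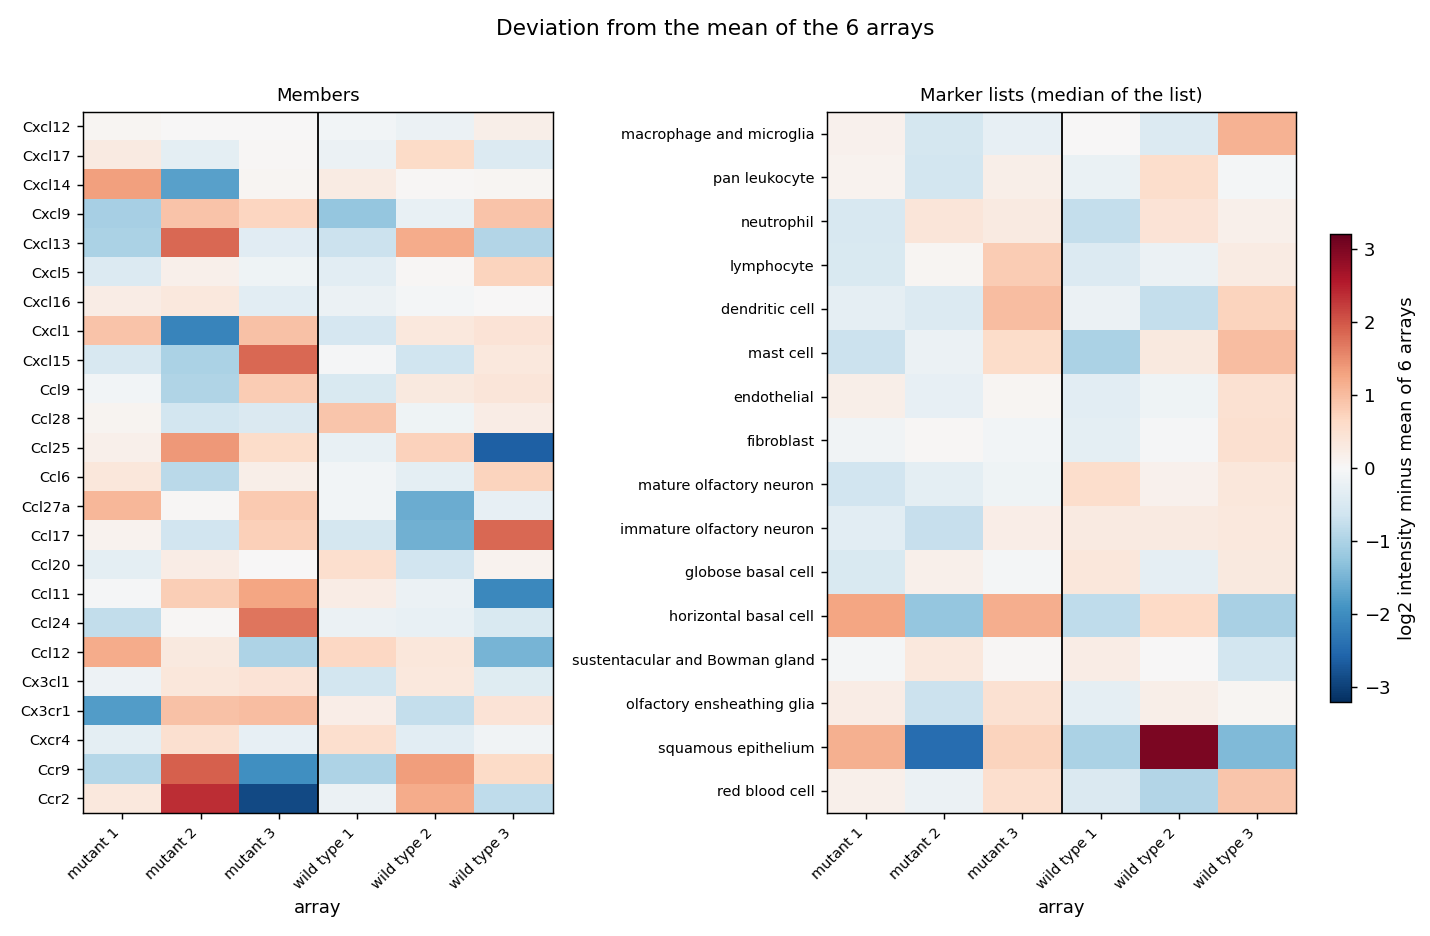
Deviation of each tested gene (left) and of the median of each marker list (right) from its mean over 6 arrays, in log2 units, with mutant arrays left of the line and wild-type arrays right of it. Ccr9, Ccr2 and Cxcl13 are red on both arrays numbered 2, and squamous epithelium markers range from 3.65 on mutant array 2 to 9.08 on wild-type array 2.

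Marker lists of leukocytes overlapped between the groups. Summed over the list and put on the log2 scale, pan-leukocyte markers (10 of 10 with a probe set) ran from 11.94 to 12.26 on mutant arrays and 11.89 to 12.33 on wild-type arrays. Macrophage and microglia markers (13 of 13) ran from 11.40 to 12.43 on mutant and 11.32 to 12.25 on wild-type arrays. Neutrophil markers (11 of 12) ran from 12.17 to 12.76 on mutant and 12.13 to 12.65 on wild-type arrays. No marker of these 3 lists was at the floor on all 6 arrays. Lymphocyte markers (10 of 12) were dim, with 3 tested, and ran from 7.89 to 8.81 on mutant and 7.71 to 8.92 on wild-type arrays. Dendritic cell markers (8 of 9) ran from 11.55 to 11.95 on mutant and 11.79 to 12.10 on wild-type arrays, and Xcr1, the Xcl1 receptor that marks a dendritic subset, was at the floor on all 6. Limma called 0 of the 33 tested members of these 5 lists over all genes, with 0 at an unadjusted p under 0.05.

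Squamous epithelium, which a dissection of the nose can carry along, varied widely among pups of both groups. Its markers (12 of 13 with a probe set) had list medians of 7.21, 3.65 and 6.79 on mutant arrays, against 5.07, 9.08 and 4.67 on wild-type arrays. Their log2 sums ran from 8.51 to 11.49 on mutant and 9.19 to 12.59 on wild-type arrays. Mutant array 2 was the lowest array for these markers and wild-type array 2 the highest. The part of squamous cells in the chemokine values was not tested.

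The other marker lists of the tissue also had 0 members called by limma over all genes. Immature neuron markers had 3 tested members with a positive and 7 with a negative difference (median -0.25). By limma 1 of the 10 was at an unadjusted p under 0.05, against 0.598% of all genes tested. For 3 of the 10 all mutant arrays were lower, against 1.95% of all genes. Globose basal cell markers had 2 with a positive and 7 with a negative difference (median -0.20). Positive differences were the more frequent for horizontal basal cell markers (6 of 7, median 0.36) and for sustentacular and Bowman gland markers (8 of 10, median 0.25). The same held for olfactory ensheathing glia markers (5 of 7, median 0.18), endothelial markers (6 of 9, median 0.12) and fibroblast markers (7 of 10, median 0.06). Mast cell markers had 2 of 4 positive (median 0.01) and red blood cell markers 2 of 2 (median 0.52). The part of these cells in the chemokine values was not tested.

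Spread between pups of 1 group was wide for the chemokine genes. The median within-group SD of the 24 tested members was 0.95 on the log2 scale, against 0.56 over all genes tested, and 14 of 24 (58.3%) spanned 2 or more over the 6 arrays, against 29.5% of all genes. Dim genes vary more on arrays, and 18 of the 24 had a mean below the median of all tested genes. Among genes of the lowest quartile by level the median SD was 1.13 for 9 members and 0.95 for all genes. In the next quartile it was 1.08 for 9 members, against 0.69. In the third quartile it was 0.72 for 3 members, against 0.47, and in the brightest quartile 0.44 for 3, against 0.31. Ccr2 and Ccr9 had the largest SDs, 2.0 and 1.65.

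**Figure D4:**
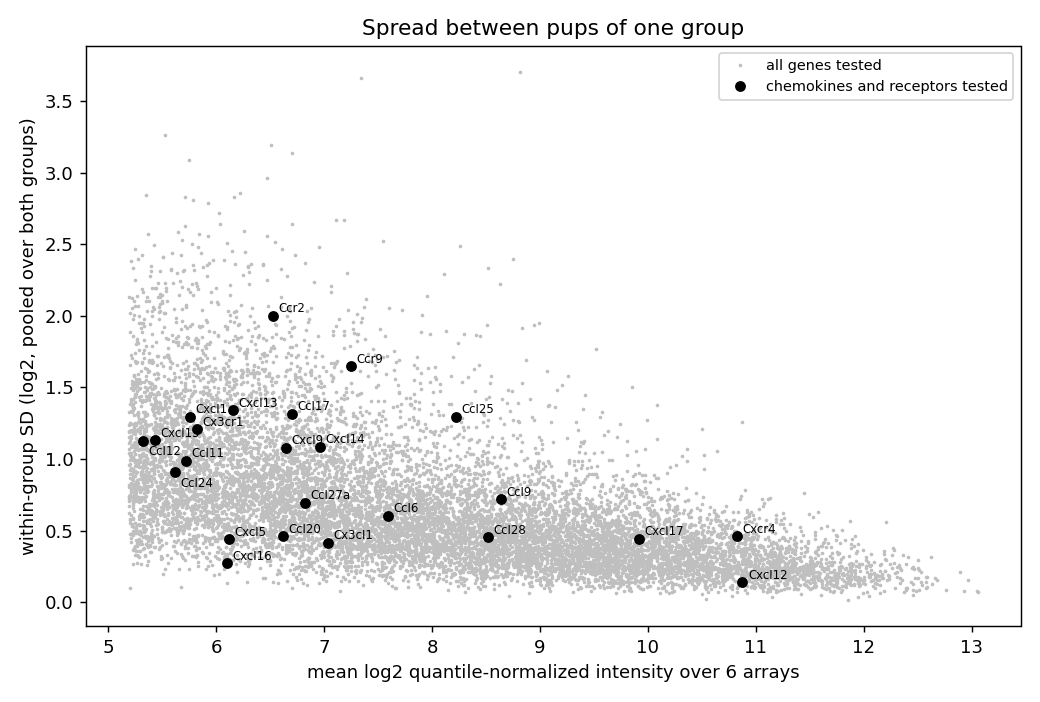
Within-group SD of log2 intensity, pooled over both groups of 3 arrays (vertical axis), against mean log2 intensity (horizontal axis), for 12703 tested genes in grey and the 24 chemokine and receptor genes in black. Ccr2 at 2.0 and Ccr9 at 1.65 stand highest among the members, and Cxcl12 at 0.14 lowest.

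Many of the genes sit in clusters. In RefSeq's gene order, 30 of the 49 members lay within 1 Mb of another member, in 7 clusters, and 19 stood alone. The cluster of Ccl2, Ccl7, Ccl11, Ccl12, Ccl8 and Ccl1, ligands of monocytes and eosinophils, had 2 members tested, Ccl11 and Ccl12, both with a positive difference. The nearby cluster of Ccl5, Ccl9, Ccl6, Ccl3 and Ccl4 had 2 tested, Ccl9 and Ccl6, both with a negative one. The receptor cluster of Ccr9, Cxcr6, Ccr1, Ccr1l1, Ccr3 and Ccr2 had 2 tested, Ccr9 and Ccr2. Both were among the 4 members that peaked on the arrays numbered 2, and the others, Ccl25 and Cxcl13, stood alone in the genome. Neutrophil ligands Cxcl5, Cxcl3, Cxcl15, Cxcl1 and Cxcl2 formed a cluster with 3 tested, of which 1 had a positive and 2 a negative difference. None of these differences passed the threshold, and Ccl12, Ccl9 and Ccl6 changed sign under other processing settings, while Ccl11 did not.

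Other genes of the chemokine pathway likewise gave 0 calls by limma over all genes, and 0 at an unadjusted p under 0.05, in each of 6 lists. Of atypical and other chemoattractant receptors 6 of 10 were tested, 2 with a positive and 4 with a negative difference (median -0.14). Ackr2, which scavenges inflammatory CC ligands, had -0.84 (SE 1.01). Of other chemoattractants 9 of 11 were tested, 5 positive and 4 negative (median 0.08), with Anxa1, annexin 1, at 0.32 (SE 0.22). Pf4, a platelet chemokine outside the name rule, read 9.05, 8.24 and 10.13 on mutant arrays, against 8.72, 8.98 and 9.94 on wild-type arrays, with overlap. Of receptor signalling genes 31 of 41 were tested, 12 positive and 19 negative (median -0.03). Among these were Gng11, a G protein gamma subunit, at 1.08 (SE 0.56), Elmo1, a Rac activator with Dock2, at 0.97 (SE 0.65), and Rgs2, which shortens G protein signals, at -0.47 (SE 0.37).

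Of inducers of chemokines and genes of the NF-kB pathway 12 of 22 were tested, 7 positive and 5 negative (median 0.10). Cebpb, a transcription factor of inflammation, had 0.53 (SE 0.30), and Il33, an epithelial alarm cytokine, -0.37 (SE 0.31). Of interferon response genes 11 of 16 were tested, 4 positive and 7 negative (median -0.06), with Ifit2 at -0.79 (SE 0.68) and Rsad2 at -0.54 (SE 0.50). Of proteases that trim or shed chemokines 7 of 10 were tested, 4 positive and 3 negative (median 0.06). Adam17 and Adam10, the sheddases of Cx3cl1 and Cxcl16, had -0.19 (SE 0.32) and 0.07 (SE 0.22). Besides Xcr1, the chemerin receptor Cmklr1, Il10 and Ctsg were at the floor on all 6 arrays. Over all genes tested the median was -0.02.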

How the data were processed

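The authors deposited linear intensity values of 45037 probe sets, 1 for each array. The sources used here do not give how probes were condensed, background corrected or scaled, and no depth applies: 3 arrays per group limit the precision. Gene names came from GEO's platform annotation (34945 probe sets with 1 symbol, 932 with several, 9160 with none), and 34741 of the first were found in RefSeq's GRCm38.p6 gene table, which changed 0 symbols.

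Array quartiles differed by 0.63, 0.69 and 0.54 on the log2 scale, so arrays were quantile normalized, floored at their 20th percentile and put on the log2 scale. A gene was left out as dim where its mean was under the 40th percentile of single-gene probe sets, which removed 5490 of 18193 genes. The 2 groups entered limma 3.58.1 under R 4.3.3 (lmFit, then eBayes with trend, two-sided, Benjamini-Hochberg over all genes, threshold 0.05), with an exact permutation test for single genes. The fit was tested on simulated data.

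The members, the 22 gene lists (277 entries, 253 with a probe set) and the tests were chosen with earlier results of these data known. By rule, the 10 brightest tested members, those with no overlap, an unadjusted p under 0.05 or a log2 difference of at least 1, and 9 always-named members were given by array. From other lists up to 3 genes with the smallest p could be named. Pf4 and the Ccl27a copies were named after their values were seen.

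Arrays of the same number correlated in their deviations from the group means at 0.47, 0.18 and 0.56 across genes, all above 0.1. The numbers, which come from the labels, were therefore used for differences within pairs and for an alternative fit with a block. The fit reported and the exact permutation test treated the arrays as unpaired. Wild-type array 2 correlated slightly better with mutant array 1, at 0.22. Alternatives changed the normalization, floor, dim filter, probe set, variance model, block and arrays used.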

Additional observations from a re-analysis of the deposited data

How the results depend on the processing

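Under each of 19 alternatives limma called 0 of the genes tested and 0 of the chemokine and receptor genes over all genes, and the median log2 difference of the members lay between -0.03 and 0.17, against 0.07. The member median was below 0 with 60% of probe sets left out as dim and without wild-type array 2. The SD between the member medians of single arrays in the fit reported was 0.27, which is a spread of levels and not of differences. The count of all genes at an unadjusted p under 0.05 was 76 and ran from 41 (array medians set equal) to 222 (without wild-type array 2). With the replicate number as a block it was 157 of 12703. The members at an unadjusted p under 0.05 were then 2 of 24, Ccl25 and Ccl27a, against 0 of 24 without the block. The block changed no call over all genes. Ccl27a was the only member at an unadjusted p under 0.05 in further alternatives, given here with the count among all 12703 genes. These were no normalization between arrays (50), the mean of all probe sets (91) and no intensity trend (97). The same held with array weights (131), without mutant array 2 (70) and without wild-type array 3 (136). Ccl25 was the only such member without wild-type array 2 (222). Members with groups that do not overlap numbered 1 in the fit reported (4.17%, against 2.86% of all genes) and 0 with array medians set equal (against 1.38%). Smaller groups overlap less often: the members numbered 6 without mutant array 1 (25%, against 10.2% of all genes), 4 when wild-type array 2 was dropped (16.7%, against 11.1%) and 3 with neither array numbered 3 (12.5%, against 20.5%). With neither array numbered 2, an alternative chosen after seeing the data, they numbered 8 (33.3%, against 24.3%), and under the other settings 1 or 2. Of the 24 tested members, 5 kept the sign of their difference under all alternatives run on them: Ccl11, Ccl25, Ccl27a, Ccl28 and Cx3cl1. The other 19 changed sign under at least 1. With 60% of probe sets left out as dim, 15 members were tested. With no filter all 49 were, and limma called 0 of them. Signals near the floor limit what the 25 dim members can show.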

Other observations

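A ligand family outside the single-symbol rule was also read on these arrays. One probe set is annotated to Ccl21a, Ccl21b, Ccl21c, Ccl21d and related loci, ligands of Ccr7 that lymphatic vessels make. It read 9.03, 8.38 and 8.40 on mutant arrays, against 8.19, 8.26 and 5.75 on wild-type arrays. The groups did not overlap, by 0.12 at the closest, and the difference of means was 1.204, with wild-type array 3 far below the others. An exact two-sided permutation test gave p = 0.1, the smallest that 3 arrays against 3 allow. Another, annotated to Ccl19 and related loci, was dim, at 4.60, 3.65 and 5.53 on mutant arrays, against 4.52, 3.65 and 3.91 on wild-type arrays. These probe sets carry several symbols each, so which locus gave the signal cannot be told apart.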
